A study of Mus musculus with 6 samples.

Results

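Of the 55353 rows of a macrophage count table, 36 genes of protein synthesis and amino acid supply are described here: 18 cytosolic aminoacyl-tRNA synthetases and 18 genes regulated by, or acting with, the transcription factor ATF4. They were taken by exact match of the gene symbol, and all 36 were present. The cells were macrophages sorted from calf muscle 3 days after hindlimb ischemia, in which the artery supply of a leg is interrupted. The KO group comprised 3 libraries whose genotype label is pfkfb3-ko, and the WT group comprised 3 libraries labelled WT. The strain of all libraries was a mixture of 129S1/Sv and 129X1/SvJ with C57BL/6 and CBA, and the tamoxifen protocol (1 mg daily for 5 days, then a pause of 7 days or more) is given for both groups. The series' design text writes EC, for endothelial cells, beside the gene. The sources used here give neither the driver of the deletion, nor ages, nor whether WT mice carried a recombinase. They do not say that each library is a different animal. The p-values therefore set the difference between the groups only against the scatter of these libraries, technical scatter included. That scatter may not be the one between animals.

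Aminoacyl-tRNA synthetases attach each amino acid to its tRNA and so supply every ribosome. When uncharged tRNA accumulates, or when the endoplasmic reticulum or haem supply is disturbed, kinases phosphorylate eIF2, general translation slows and the mRNA of ATF4 is translated more efficiently. ATF4, often paired with a C/EBP protein, then induces amino acid transporters, enzymes of asparagine, serine and one-carbon metabolism, many cytosolic synthetases, and stress effectors such as CHOP and TRIB3. Since ATF4 is controlled largely at translation, its mRNA level is an incomplete readout of its protein. In macrophages the same genes supply amino acids during inflammatory activation.

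ATF4 binds the C/EBP-ATF response element, whose core was searched for as TGATGNAA on both strands in RefSeq promoters of GRCm38.p6, from 250 bases before to 50 bases after each start. Promoters were found for 28 of the 36 members; Cars, Hars, Lars, Nars, Rars, Vars, Wars and Slc7a5 had no entry. The core was present at 10 of 28 members (35.7%), against 4.51% of the 27025 genes of the table. Among the matched synthetases 5 of 11 held it, and among the matched amino acid and stress genes 5 of 17. The stretches are shown because the shared core is the sequence that many members have in common. They are written 5′ to 3′ on the strand of the gene, with the core, or its reverse complement, in capitals.
Aars, chr8:111033710-111033757, plus strand: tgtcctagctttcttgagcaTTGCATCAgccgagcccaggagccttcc
Gars, chr6:55037951-55037998, plus strand: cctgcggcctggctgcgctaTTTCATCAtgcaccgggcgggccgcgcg
Iars, chr13:49682126-49682155, plus strand: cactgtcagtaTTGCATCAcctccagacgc
Tars, chr15:11399655-11399684, minus strand: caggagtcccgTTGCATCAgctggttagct
Yars, chr4:129189895-129189924, plus strand: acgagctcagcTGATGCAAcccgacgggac
Asns, chr6:7693210-7693252, minus strand: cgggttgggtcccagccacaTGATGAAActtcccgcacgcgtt
Slc7a11, chr3:50443652-50443699, minus strand: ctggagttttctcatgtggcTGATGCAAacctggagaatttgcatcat
Chac1, chr2:119351029-119351076, plus strand: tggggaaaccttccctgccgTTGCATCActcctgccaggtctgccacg
Nupr1, chr7:126625553-126625600, minus strand: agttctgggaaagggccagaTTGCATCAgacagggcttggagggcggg
Trib3, chr2:152344028-152344057, minus strand: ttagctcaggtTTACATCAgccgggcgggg

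The matches began between 193 bases before the start (Chac1) and 15 bases after it (Trib3). Slc7a11 held a further copy on the opposite strand 47 bases before its start, seen in lower case at the end of its stretch, and Aars a further copy 10 bases after its start. A match describes letters in these windows and is not evidence of binding in these cells.

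Library totals ranged from 18853712 to 21070130 counts in KO and from 21029637 to 29060584 in WT, and the 36 members together held 22744 to 37650 counts in KO libraries and 44241 to 73411 in WT libraries. Levels are CPM, counts scaled to a common library size with TMM factors. The scaling matters here because the 5 rows that exceeded 1% of a library, Gm23935 the largest, summed to 40.1% to 52.2% of the counts in KO and 19% to 21.9% in WT. KO replicates 1 and 2 stood apart from the other libraries in sex-linked RNA. Xist reached 154 and 171 CPM there, while KO replicate 3 had 0.129 CPM and the highest WT library 0.465 CPM. The Y-linked Ddx3y was at 0.533, 0 and 63.9 CPM in KO replicates 1 to 3. In WT replicates 1 to 3 it was at 69.2, 68.8 and 60.5 CPM. The groups were therefore unbalanced in sex-linked RNA, and its part in the differences between KO and WT was not tested. Summed macrophage markers stood at 8360 to 8775 CPM in KO and 5987 to 8591 CPM in WT, far above the sums of the other cell types. Of the 8 macrophage markers, Csf1r was higher (1588 to 1870 CPM in KO and 738 to 928 CPM in WT, adjusted p = 0.010) and Cd68 lower (388 to 525 CPM in KO and 716 to 874 CPM in WT, adjusted p = 0.034), and the other 6 did not pass the edgeR test. Summed fibroblast markers were at 148 to 198 CPM in KO and 10.7 to 40.2 CPM in WT, and summed endothelial markers at 15.9 to 31.5 CPM in KO and 48.1 to 101 CPM in WT. Myoblast markers summed to 17.2 to 24.0 CPM in KO and 3.43 to 4.69 CPM in WT, and neutrophil markers to 0.357 to 2.0 CPM in KO and 1.56 to 6.79 CPM in WT, with Ly6g at 0 counts in all libraries. Pfkfb3 itself was at 55.5, 59.3 and 160 CPM in KO replicates 1 to 3, against 70.9, 101 and 82.4 CPM in WT replicates 1 to 3. KO replicate 3 was the highest of all 6 libraries and the groups overlapped, so Pfkfb3 RNA in these cells does not separate the genotype labels.

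No member passed the test between KO and WT, and for most of them the values of the groups overlapped. Of 35 members with enough counts to test, 0 passed an adjusted p of 0.05 in edgeR, where 6.64% of all 14987 tested genes did (4.39% higher and 2.25% lower in KO). Among the 35 tested members 4 had an unadjusted p under 0.05 in edgeR, against 3516 of the 14987 tested genes. DESeq2 called 0 members and 12.5% of all genes. The groups did not overlap for 5 of the 35 members, Qars, Atf5 and Sesn2 with KO higher and Rars and Atf4 with KO lower, against 31.5% of all tested genes (16.8% with KO higher and 14.7% with KO lower). The median log2 fold change was -0.01 over the 18 synthetases, -0.20 over the 17 tested amino acid and stress genes and 0.01 over all tested genes. The calls depended on the method: limma-voom with sample weights, which called 32.4% of all genes, called Dars, Lars, Nars, Qars, Vars and Atf5 higher and Atf4 lower. With library sizes alone, where the median of all genes was -0.60, 12 synthetases and 10 other members were called lower and none higher. In that setting 40.1% of all genes were called lower. In bulk libraries, fewer cells of a type and less RNA per cell cannot be told apart.

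**Figure D1:**
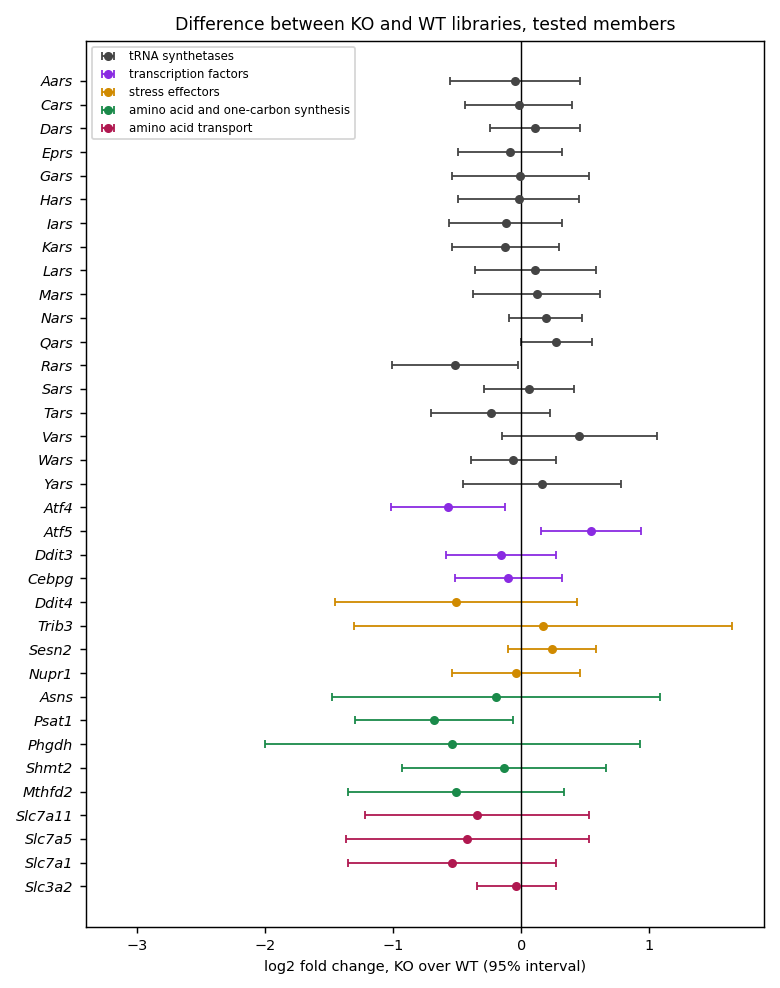
Log2 fold change of KO over WT (horizontal axis) with its 95% interval from the edgeR fit for the 35 tested members, coloured by role. The synthetases lie between -0.52 (Rars) and 0.45 (Vars), and all 9 genes of amino acid synthesis and transport lie below 0, with intervals that span it for all but Psat1.

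Per kilobase of exon, the synthetases in KO ranged from 4.44 ± 0.144 (Cars) to 31.2 ± 3.45 CPM per kilobase (Nars), and in WT from 4.50 ± 1.08 (Cars) to 30.3 ± 3.51 CPM per kilobase (Gars; SD, n = 3 each). Nars and Gars, neighbours at the top of this order, did not differ beyond their spread in either group. Of the 18 synthetases, 8 had a positive and 10 a negative log2 fold change, and the interval stayed within a 2-fold difference in either direction for 16. The median half-width of the interval was 0.45 on the log2 scale.

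The synthetases nearest to a difference were Rars, Qars and Vars. Rars, the arginyl-tRNA synthetase of the multi-synthetase complex (chromosome 11, 35808381 to 35834506, GRCm38), was at 51.0, 52.6 and 32.4 CPM in KO replicates 1 to 3 and at 53.1, 61.8 and 79.6 CPM in WT replicates 1 to 3. All KO values lay under all WT values, KO replicate 3 lowest by a wide gap, while the highest KO and lowest WT values were close. Its log2 fold change was -0.52 (SE 0.22, adjusted p = 0.19). It was called lower with no count filter (adjusted p = 0.0257), and its log2 fold change was -0.32 without KO replicate 3 (adjusted p = 0.268) and -0.34 without WT replicate 3 (adjusted p = 0.461).

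Qars, the glutaminyl-tRNA synthetase (chromosome 9, 108507706 to 108515941), was at 101, 103 and 87.5 CPM in KO and at 81.9, 84.0 and 75.5 CPM in WT. All KO values were above all WT values, and the difference was small, at a log2 fold change of 0.27 (SE 0.12, adjusted p = 0.22). Vars, the valyl-tRNA synthetase (chromosome 17, 35000987 to 35016322), was at 117, 128 and 65.2 CPM in KO, against 59.7, 68.7 and 98.1 CPM in WT. KO replicates 1 and 2 exceeded every WT library, but KO replicate 3 was below WT replicates 2 and 3. Vars had a log2 fold change of 0.45 (SE 0.27, adjusted p = 0.35), or 0.70 without KO replicate 3 (adjusted p = 0.0643).

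The main structure among the synthetases lay inside the KO group. Counts of the lowest or highest library, here and below, were not planned and describe the pattern without testing it. KO replicate 3 was the lowest of the KO libraries for 17 of 18 synthetases, all but Cars, against 42% of all tested genes, and the lowest of all 6 libraries for 13 of 18, against 25.6%. Gars, the glycyl-tRNA synthetase, was at 107, 117 and 58.4 CPM in KO replicates 1 to 3, against 89.9, 86.4 and 107 CPM in WT. Yars, the tyrosyl-tRNA synthetase, was at 42.3, 40.0 and 20.5 CPM in KO, against 24.0, 30.6 and 37.2 CPM in WT. Eprs, which joins glutamyl- and prolyl-tRNA synthetase in 1 protein, was at 166, 164 and 109.7 CPM in KO and at 145, 145 and 177 CPM in WT. For these genes KO replicates 1 and 2 lay near or above the WT values while KO replicate 3 lay under all of them. The ratio of KO replicate 3 to the mean of KO replicates 1 and 2 had a median of 0.657 over the synthetases, from 0.498 (Yars) to 1.01 (Cars), and of 1.00 over all tested genes.

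The other synthetases overlapped between the groups, with the same dip in KO replicate 3. Aars, the alanyl-tRNA synthetase, was at 90.9, 93.0 and 56.8 CPM in KO and at 63.2, 85.6 and 99.8 CPM in WT. Lars, which charges leucine tRNA and also reports leucine to mTORC1, was at 69.0, 72.9 and 41.5 CPM in KO and at 51.8, 54.5 and 63.4 CPM in WT. Tars, the threonyl-tRNA synthetase, was at 61.7, 54.6 and 34.9 CPM in KO and at 54.8, 56.6 and 67.1 CPM in WT. In each of them KO replicate 3 was the lowest of the 6 libraries. Hars (histidine) ranged over 38.3 to 63.9 CPM in KO and 45.8 to 64.3 CPM in WT, Iars (isoleucine) over 40.9 to 64.8 CPM in KO and 48.9 to 69.5 CPM in WT, and Kars (lysine) over 44.9 to 72.9 CPM in KO and 61.5 to 73.8 CPM in WT. Their adjusted p-values were 0.97, 0.76 and 0.74, and that of Aars was 0.93.

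The remaining synthetases also overlapped between the groups. Wars, the tryptophanyl-tRNA synthetase, which is also induced by interferon, was at 36.7, 45.1 and 33.2 CPM in KO and at 36.9, 41.3 and 41.6 CPM in WT. Nars, the asparaginyl-tRNA synthetase, was at 148, 141 and 119 CPM in KO and at 113, 122 and 121 CPM in WT. Their log2 fold changes were -0.06 and 0.19, with adjusted p-values of 0.85 and 0.40. Dars (aspartate) ranged over 58.6 to 80.3 CPM in KO and 60.9 to 75.3 CPM in WT, and Mars (methionine) over 24.7 to 38.9 CPM in KO and 22.7 to 36.7 CPM in WT. Sars, the seryl-tRNA synthetase, averaged 87.8 ± 16.6 CPM in KO and 84.2 ± 0.940 CPM in WT (SD, n = 3 each), so that nearly all of its spread lay in KO. Cars, the cysteinyl-tRNA synthetase and the exception to the dip, differed little among KO libraries and averaged 29.3 ± 0.945 CPM in KO and 29.6 ± 7.13 CPM in WT (SD, n = 3 each). Exons on the opposite strand overlap 7.97% of the exonic length of Hars (from Hars2), 3.21% of Cars and 1.99% of Mars (from Ddit3), and their reads could be split or shared by counting without strand.

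**Figure D2:**
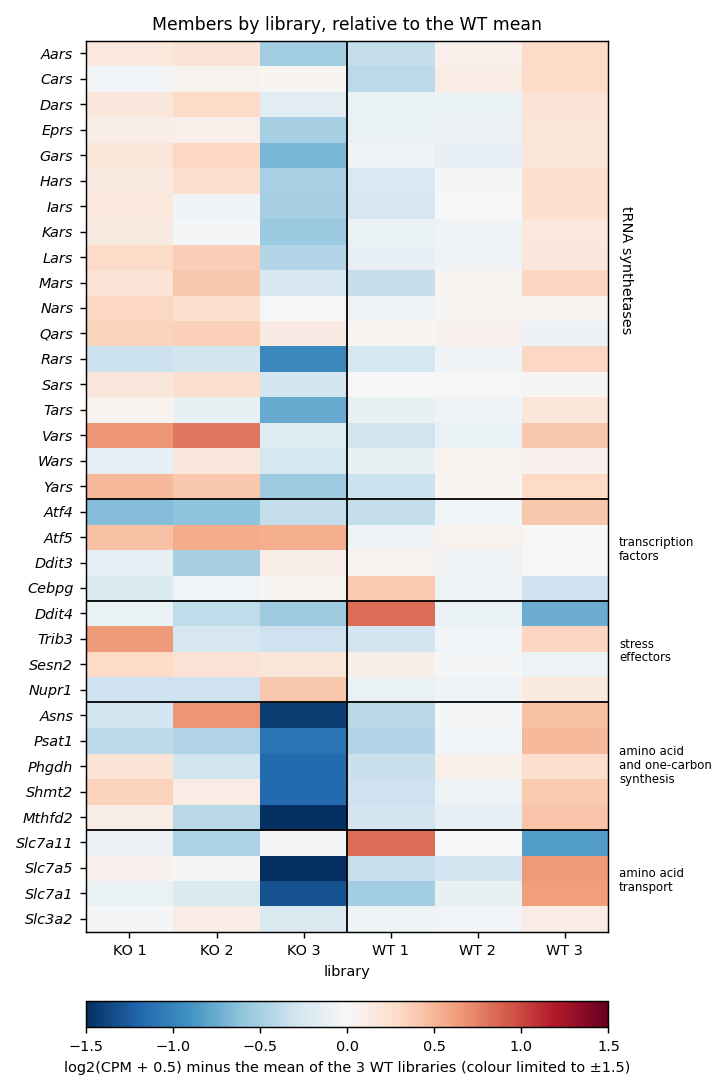
Each cell gives log2(CPM + 0.5) of a member in a library minus the mean of the 3 WT libraries, with the KO libraries in the left columns, colour limited to 1.5 in either direction and black lines between roles. KO replicate 3 is blue for most synthetases and for all 5 genes of amino acid and one-carbon synthesis, while KO replicates 1 and 2 are mostly pale or red for the synthetases.

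With KO replicates 1 and 2 left out, the median log2 fold change of the synthetases was -0.53, and with KO replicate 3 left out it was 0.20. For the amino acid and stress genes these medians were -0.80 and -0.14. Neither comparison called a synthetase or any other member, with 0.844% and 10.7% of all genes called. In the first, KO replicate 3 stands alone and is assumed to vary like the WT libraries. Within WT there was a spread of the same kind: WT replicate 3 was the highest WT library for 16 of 18 synthetases (35.6% of all tested genes) and WT replicate 1 the lowest for 14 of 18 (38.8%). The synthetases thus moved together from library to library within both genotypes. Sex-linked RNA divided the KO libraries in the same way as the synthetases, replicates 1 and 2 against replicate 3. In sex-linked RNA the WT libraries were on the side of KO replicate 3. Their summed synthetases, at 1119, 1218 and 1407 CPM, lay above KO replicate 3 (965 CPM). They lay below KO replicates 1 and 2 (1418 and 1445 CPM), WT replicate 3 only just. Depth and the share of the 5 dominant rows also differed among these libraries. The part of each of these in the movement of the synthetases was not tested.

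**Figure D3:**
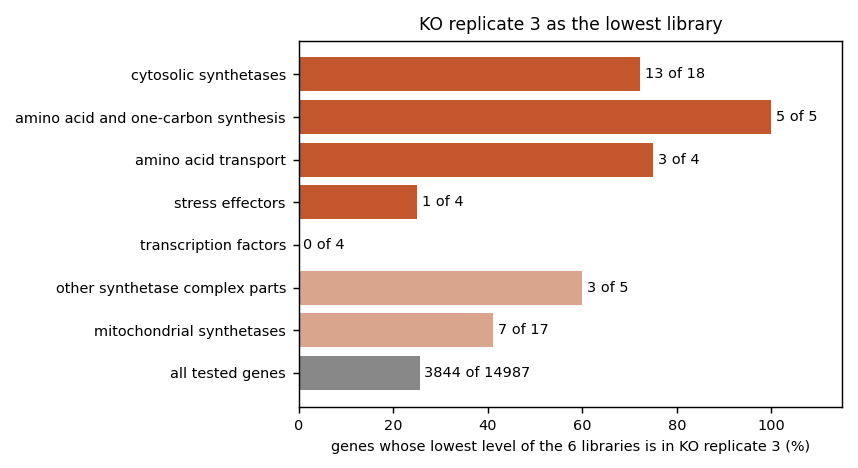
Share of genes (horizontal axis, in percent) whose lowest level among the 6 libraries was in KO replicate 3, with the number of genes beside each bar. It was 13 of 18 cytosolic synthetases and 5 of 5 synthesis genes, 0 of 4 transcription factors and 3844 of 14987 tested genes.

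Of the transcription factors, Atf4 and Atf5 came nearest to a difference, in opposite directions. Atf4 (chromosome 15, 80255184 to 80257541) was at 77.0, 79.2 and 94.2 CPM in KO replicates 1 to 3, against 94.4, 117 and 160 CPM in WT replicates 1 to 3. The groups did not overlap, although KO replicate 3 and WT replicate 1 nearly met. Its log2 fold change was -0.57 (SE 0.195, 95% interval -1.01 to -0.13, adjusted p = 0.12). Atf4 was called lower in 3 of 15 alternatives, limma-voom (adjusted p = 0.00323), no count filter (0.00639) and library sizes alone (0.00176), and was below 0 in all 15. Without WT replicate 3 its log2 fold change was -0.34 (adjusted p = 0.296), and the adjusted p was at most 0.384, with KO replicates 1 and 2 left out.

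Atf5, a related factor that is also translated preferentially under stress (chromosome 7, 44812256 to 44816658), was at 8.58, 9.34 and 9.28 CPM in KO, against 5.97, 6.47 and 6.19 CPM in WT. The KO values lay above the WT values with little spread in either group, at a log2 fold change of 0.54 (SE 0.17, 95% interval 0.15 to 0.94, adjusted p = 0.095). With library sizes alone it was -0.07. Exons of Il4i1 and Nup62 overlap 4.11% of its exonic length on the opposite strand, and whether the counting used strand is not stated.

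Ddit3, which encodes the stress factor CHOP, was at 11.9, 8.99 and 13.9 CPM in KO and at 13.4, 12.4 and 13.0 CPM in WT. Cebpg, a dimer partner of ATF4, was at 45.8, 51.3 and 53.8 CPM in KO and at 42.3 to 69.3 CPM in WT, highest in WT replicate 1. Both overlapped between the groups, with adjusted p-values of 0.67 and 0.80. Exons of Mars and Gm4189 overlap 4.73% of the exonic length of Ddit3 on the opposite strand. In none of the 4 factors was KO replicate 3 the lowest library, against 13 of 18 synthetases and 25.6% of all tested genes. The 4 factors are too few to be set apart from that share of all genes.

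**Figure D4:**
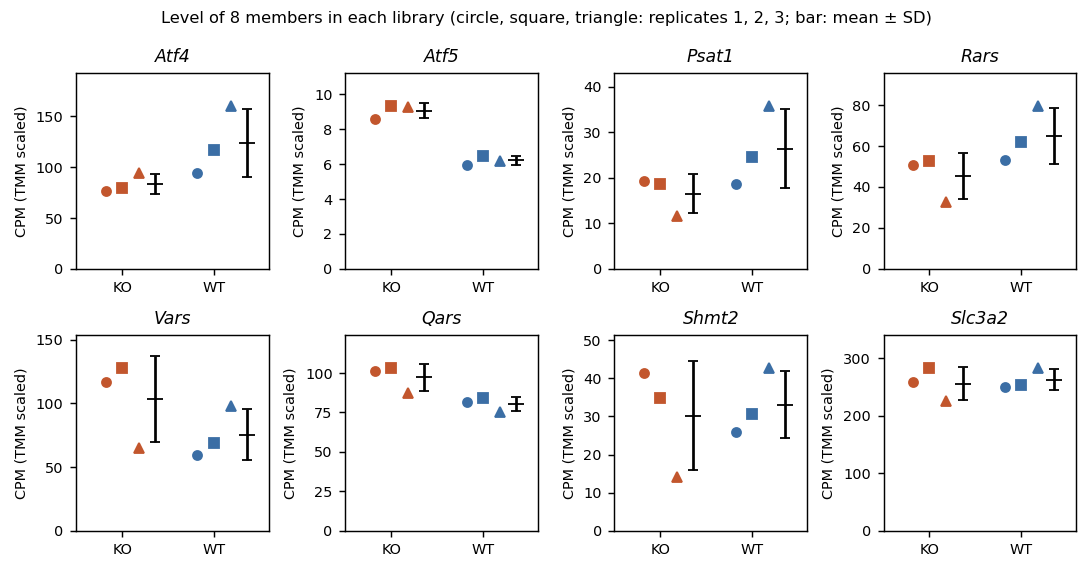
CPM (TMM scaled, axes from 0) of 8 members in KO libraries on the left and WT libraries on the right of each panel; circles, squares and triangles are replicates 1, 2 and 3, and bars give the mean ± SD (n = 3 each). Groups are separate for Atf4, Atf5, Rars and Qars and overlap for Psat1, Vars, Shmt2 and Slc3a2.

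The stress effectors were low or even between groups. Sesn2, a leucine sensor that restrains mTORC1, was at 13.9, 13.1 and 12.7 CPM in KO, against 11.9, 11.0 and 10.6 CPM in WT, which did not overlap (log2 fold change 0.24, SE 0.15, adjusted p = 0.38). Nupr1, a small stress-induced chromatin protein, was at 14.0, 14.0 and 23.2 CPM in KO and at 16.3, 16.9 and 19.4 CPM in WT (adjusted p = 0.94). In Nupr1, KO replicate 3 was the highest of all libraries. Ddit4, an mTORC1 inhibitor induced by stress and hypoxia, was at 4.69, 3.78 and 3.35 CPM in KO and at 9.46, 4.69 and 2.82 CPM in WT (adjusted p = 0.51).

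Trib3, a pseudokinase that restrains ATF4 signalling, had 18, 4 and 4 counts in KO libraries and 7, 15 and 23 in WT libraries (adjusted p = 0.91). Chac1, which degrades glutathione, had 11, 0 and 0 counts in KO and 1, 3 and 10 in WT, and did not pass the filter on low counts. Trib3 and Chac1, both with the core in their promoters, were thus near the limit of detection in both groups at this depth.

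All 5 genes of amino acid and one-carbon synthesis had negative log2 fold changes, with a median of -0.51, and none passed the test. Psat1, of the serine pathway (chromosome 19, 15904678 to 15947337), was at 19.4, 18.5 and 11.5 CPM in KO replicates 1 to 3, against 18.7, 24.7 and 35.8 CPM in WT replicates 1 to 3. The groups overlapped at WT replicate 1, and the log2 fold change was -0.68 (SE 0.27, adjusted p = 0.18), or -0.47 without KO replicate 3 (adjusted p = 0.268) and -0.40 without WT replicate 3 (adjusted p = 0.458). Psat1 was called lower in 2 of 15 alternatives, no count filter (adjusted p = 0.00686) and library sizes alone (0.00329).

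Shmt2 and Mthfd2, mitochondrial enzymes of the one-carbon cycle, followed the same libraries. Shmt2 was at 41.4, 35.0 and 14.2 CPM in KO, against 25.9, 30.6 and 42.8 CPM in WT (log2 fold change -0.13, adjusted p = 0.86). Mthfd2 was at 19.9, 13.8 and 6.25 CPM in KO, against 15.1, 16.8 and 25.1 CPM in WT (log2 fold change -0.51, adjusted p = 0.45). In both genes KO replicate 3 was the lowest and WT replicate 3 the highest of the libraries, and in Shmt2 KO replicate 1 stood close to the highest.

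Asns, the asparagine synthetase, was low at 2.29, 4.92 and 0.774 CPM in KO, against 2.06, 2.88 and 4.14 CPM in WT (adjusted p = 0.87). Phgdh, the first enzyme of serine synthesis, had 21, 9 and 2 counts in KO and 16, 36 and 40 in WT (adjusted p = 0.67). For all 5 genes of this group KO replicate 3 was the lowest of the 6 libraries, WT replicate 3 the highest of WT and WT replicate 1 the lowest of WT. The median ratio of KO replicate 3 to KO replicates 1 and 2 was 0.371. Set against WT alone, KO replicate 3 had log2 fold changes from -1.25 (Psat1) to -2.87 (Phgdh), and the lowest adjusted p of the group was 0.0786 (Mthfd2). Without KO replicate 3 they ran from -0.47 (Psat1) to 0.24 (Asns).

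The median log2 fold change of the amino acid transporters was -0.38, and those of Slc7a11, Slc7a5 and Slc7a1 moved with single libraries. That of Slc3a2 moved little, from -0.137 to 0.053 with 1 library left out. Without WT replicate 1 the log2 fold change of Slc7a11 was 0.195, while Slc7a5 (-0.593), Slc7a1 (-0.765) and Slc3a2 (-0.07) stayed below 0. Without KO replicate 3 the log2 fold changes were -0.42 (Slc7a11), -0.05 (Slc7a5), -0.24 (Slc7a1) and 0.05 (Slc3a2), and without WT replicate 3 they were -0.68 (Slc7a11), -0.02 (Slc7a5), -0.15 (Slc7a1) and 0.02 (Slc3a2). Slc7a5, the light chain LAT1, was at 23.0, 21.5 and 7.28 CPM in KO, against 17.1, 17.8 and 34.3 CPM in WT (adjusted p = 0.59). Slc7a1, the cationic amino acid transporter that carries arginine and lysine, was at 35.4, 32.6 and 15.1 CPM in KO, against 26.3, 35.2 and 59.1 CPM in WT (log2 fold change -0.54, adjusted p = 0.41). Both had their lowest value in KO replicate 3 and their highest in WT replicate 3. Slc7a1 was called lower in 2 of 15 alternatives, no count filter (adjusted p = 0.0293) and library sizes alone (0.0132), and was below 0 in all 15.

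Slc7a11, the cystine transporter xCT, went the other way among libraries, at 9.54, 7.20 and 10.1 CPM in KO, against 18.6, 10.1 and 5.49 CPM in WT (adjusted p = 0.64). Slc3a2, the heavy chain CD98 that pairs with LAT1 and xCT, was the most abundant member per kilobase in both groups, with 72.6 ± 8.28 CPM per kilobase in KO libraries and 74.5 ± 5.06 CPM per kilobase in WT libraries (SD, n = 3 each). Its libraries stood at 259.5, 283 and 225 CPM in KO, against 250.9, 254 and 283 CPM in WT, and the 95% interval of its log2 fold change was -0.34 to 0.27.

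Set side by side as sums, the synthetases gave 1418, 1445 and 965 CPM in KO libraries, against 1119, 1218 and 1407 CPM in WT libraries. The amino acid and stress genes gave 589, 598 and 501 CPM in KO libraries, against 596, 612 and 747 CPM in WT libraries. The ratio of the first sum to the second was 2.41, 2.42 and 1.92 in KO and 1.88, 1.99 and 1.88 in WT, or 2.25 ± 0.282 and 1.92 ± 0.0627 (SD, n = 3 each). KO replicates 1 and 2 thus had more synthetase RNA per unit of the other members than any WT library, and KO replicate 3 lay within the WT range. Slc3a2 and Atf4 made up most of the second sum, so this ratio follows them more than the low genes.

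Among 20 further ATF4 targets, of which 13 were tested, 1 was higher and 1 lower in KO, against 4.39% and 2.25% of all tested genes. Atf3, a stress-induced factor, fell to 228, 232 and 284 CPM in KO libraries, against 338, 431 and 363 CPM in WT libraries (log2 fold change -0.60, SE 0.15, adjusted p = 0.049). Its call was lost when KO replicate 1, KO replicate 2 or any WT library was omitted, at adjusted p-values of 0.0631 to 0.19. It was also lost with the title ending as a block (adjusted p = 0.12) and with KO replicates 1 and 2 both left out (0.22). Vldlr, a lipoprotein receptor, rose to 3.31, 2.92 and 1.68 CPM in KO libraries, against 0.271, 0.384 and 0.323 CPM in WT libraries (log2 fold change 2.99, SE 0.43, adjusted p = 0.0084). It kept its call with any single library left out and lost it with KO replicates 1 and 2 both left out (log2 fold change 2.28, adjusted p = 0.0925). The summed fibroblast markers were higher in the same libraries, and their part in this was not tested.

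Of 16 genes that control eIF2, 0 were called by edgeR. In 3 of them the unadjusted p was under 0.05, against 3516 of all 14987 tested genes. Eif2s2, the beta subunit of eIF2, had the smallest p, at 65.8, 60.8 and 66.3 CPM in KO and 77.7, 75.5 and 86.0 CPM in WT (log2 fold change -0.31, adjusted p = 0.15). Chosen after its values were seen, the X-linked gene Eif2s3x, which escapes X inactivation in mice, stood at 72.9, 64.1 and 32.6 CPM in KO libraries, against 45.4 to 50.9 CPM in WT libraries. It was highest in the libraries with high Xist (adjusted p = 0.62). Of 12 genes of the other branches of the response to unfolded protein, 10 had a negative log2 fold change (median -0.35), 6 had all KO libraries under all WT libraries, against 14.7% of all tested genes, and 0 were called lower by edgeR. Xbp1, the transcription factor of the IRE1 branch, had 62.4, 53.1 and 47.3 CPM in KO libraries, against 92.2, 78.1 and 70.8 CPM in WT libraries (log2 fold change -0.57, adjusted p = 0.062). Hspa5, the chaperone BiP, had 872, 758 and 571 CPM in KO libraries, against 911, 1100 and 1161 CPM in WT libraries (log2 fold change -0.53, adjusted p = 0.14). Both genes are named after their values were seen, and in both the groups did not overlap. The 1 gene called, against 6.64% of all tested genes, was higher: Herpud1, a component of protein degradation at the endoplasmic reticulum, at 48.6, 48.1 and 44.7 CPM in KO and 34.4, 32.3 and 23.4 CPM in WT (log2 fold change 0.65, SE 0.16, adjusted p = 0.048). Its call was lost in 10 of 15 alternatives, including 5 of the 6 with 1 library left out (adjusted p of up to 0.19), all but that of KO replicate 3. With library sizes alone its log2 fold change was 0.04.

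Among the other synthetase genes, 1 passed the test. Of 5 further cytosolic components (Farsa, Farsb and the scaffold proteins Aimp1, Aimp2 and Eef1e1), 0 were called by edgeR. In 1 of them the unadjusted p was under 0.05, against 3516 of all 14987 tested genes. That gene, Aimp2, was at 4.16, 3.50 and 1.93 CPM in KO and at 4.73, 5.37 and 6.10 CPM in WT (log2 fold change -0.75, adjusted p = 0.18). Of 17 mitochondrial synthetases, 1 was called, a share near the 6.64% of all tested genes. It was Lars2, the mitochondrial leucyl-tRNA synthetase. The Lars2 row was at 4488, 4055 and 3208 CPM in KO libraries, against 1315, 1792 and 2201 CPM in WT libraries (log2 fold change 1.15, SE 0.24, adjusted p = 0.025). This level was far above that of the other mitochondrial synthetases. The next highest, Iars2, was at 46.6, 42.2 and 36.5 CPM in KO and 58.1, 51.9 and 57.2 CPM in WT. Whether all reads of the Lars2 row come from the mRNA of the synthetase was not tested. Its call was lost when KO replicate 1, KO replicate 2, WT replicate 1 or WT replicate 2 was omitted, at adjusted p-values of 0.063 to 0.13. It was also lost with library sizes alone (log2 fold change 0.54, adjusted p = 0.101), with the title ending as a block (0.0919) and with KO replicates 1 and 2 both left out (0.157). The summed share of the 5 dominant rows was also higher in every KO library than in every WT library. With those rows removed before the fit, the log2 fold change of Lars2 was 1.13 (adjusted p = 0.0294). That removal left the Lars2 counts as they were and could change only the scaling, so it cannot show where the reads of Lars2 come from.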

How the data were processed

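The authors deposited raw read counts per gene for 6 libraries. The submitters' processing notes list GRCm38 and, with no version or role, HISAT2, featureCounts, Trim Galore, FastQC and DESeq. They give no annotation or strand setting. In 26 rows the symbol had become a date; these held 0.0913% to 0.163% of a library and were left out. The members and lists were chosen with earlier results of these data known. Genes were kept by filterByExpr, scaled by TMM and tested with edgeR 4.0.16 (glmQLFTest, two-sided, no covariate, Benjamini-Hochberg over all 14987 genes, threshold 0.05) in R 4.3.3. Standard errors were calculated from its log2 fold changes and F statistics. The 95% intervals built on them describe the uncertainty of the difference between the groups, given the scatter of these libraries. The fit was also run on simulated counts with seeded changes, drawn for every library from a common expression profile. These counts lacked the difference in dominant rows between KO and WT, so they do not test the fit under it. Alternatives were DESeq2 1.42.0, its size factors, limma 3.58.1 (voom with sample weights), library sizes alone, no filter, CPM of at least 1 in 3 libraries, removal of rows above 1% of a library, libraries left out and the title ending as a block. All 36 members were reported; of each further list every called gene, or else the gene of smallest p. Positions and exonic lengths came from GENCODE M21.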

Additional observations from a re-analysis of the deposited data

How the results depend on the processing

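With DESeq2 size factors, CPM of at least 1 in 3 libraries, DESeq2 and removal of the dominant rows, no member was called. The same held with each library left out, with KO replicates 1 and 2 both left out, and with the replicate block. The count over all genes was 995, against 6308 with library sizes alone (300 higher, 6008 lower), 1957 with no filter, 1870 with DESeq2, 4850 with limma-voom, 149 without KO replicates 1 and 2, 267 with the replicate block and 189 to 1652 with 1 library left out. Synthetases called numbered 12 with library sizes alone, 1 with no filter and 5 with limma-voom. The other members called numbered 10, 3 and 2. The share of all genes called in these settings was 42.1%, 6.03% and 32.4%. The synthetase median was -0.633 with library sizes alone and -0.531 without KO replicates 1 and 2, and ran from -0.114 to 0.199 with 1 library left out. The median of the others was -0.859, -0.798 and -0.444 to -0.133 under the same settings. With library sizes alone Dars (-0.512) and Sars (-0.558) turned to a called fall; other sign changes were of differences not called in either fit. The core was found at 10.7% of members on the forward strand, against 2.41% of all genes, and at 14.3% with TGATGNAAT, against 1.08%. Beyond the shift of the median of all genes with library sizes alone, the causes were not tested. No pairing by title ending was seen: deviations of libraries with the same ending correlated at 0.021, -0.062 and -0.092 across genes. Libraries with different endings correlated at -0.076 to 0.099. With 3 libraries in each group, these values cannot exclude a pairing. Differences in genes of few counts, such as Trib3, Phgdh and Asns, were not detectable at this depth unless large.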
